A study of Mus musculus with 5 samples.

Results

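The miRNAs described here are mmu-miR-451, mmu-miR-144 and mmu-miR-486 (miR-451, miR-144 and miR-486 below), the 3 array probes that bear the names of the best known red blood cell miRNAs, out of 569 mouse miRNA probes. They were chosen by exact probe name among the rows not marked as controls, and every array carried 6 spots of each. The RNA came from the hippocampus of Met/Met and Val/Val mice, homozygous for methionine and valine in turn at the common variant site of the BDNF prodomain. Animals of both genotypes were knock-ins with a human BDNF allele on the 129/Sv strain and were 8 weeks old. On each of 5 two-colour arrays, called biological replicates 1 to 5, the small RNA of 1 Met/Met mouse (Cy3) was set against that of 1 Val/Val mouse (Cy5), with no exchange of dyes. Dye effects and genotype therefore cannot be told apart. The deposited intensity columns are named Test and Cntrl, and the sources used here do not say which genotype is in which. Every ratio below is therefore log2 of Test over Cntrl, and all signs turn if the columns are swapped. This was whole tissue: fewer red blood cells and less miRNA per cell cannot be told apart, and whether the blood was flushed from the brains is not given in the sources used here.

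Red blood cells lose their nucleus but keep a stock of small RNAs, and a dissected brain brings blood in its vessels. MiR-451 and miR-144 are cut from 1 primary transcript that the transcription factor GATA1 drives in erythroid cells. MiR-451 is known for its unusual maturation, since its short hairpin is cut by Argonaute 2 in place of Dicer, while miR-144 follows the usual route. MiR-486 is encoded in the ankyrin-1 gene Ank1, whose protein anchors the red cell skeleton to the membrane, and it is also made in striated muscle.

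The target sequences on the array are shown because they fix which strand each probe measured. Capitals mark the seed, bases 2 to 8 from the 5′ end, the stretch that pairs with target mRNAs:
miR-451: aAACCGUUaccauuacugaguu
miR-144: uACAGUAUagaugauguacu
miR-486: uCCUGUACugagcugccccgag
The RefSeq sequences used here held no entry for Mir486, so the miR-486 target could not be matched to it or placed in its hairpin. The miR-451 and miR-144 targets were identical to mature miR-451a and miR-144-3p of RefSeq (2 of 3 targets matched). They lie at chr11:78073186-78073207 and chr11:78073047-78073066 on the plus strand of GRCm38.p6. The hairpins of that pair follow, with the measured strand in capitals, because they show how close together and how differently placed these strands are:
Mir144: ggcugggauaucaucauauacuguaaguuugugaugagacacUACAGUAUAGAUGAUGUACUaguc
Mir451a: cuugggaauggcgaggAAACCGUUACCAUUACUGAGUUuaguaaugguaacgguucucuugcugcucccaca
Between them lie 99 bases. The miR-144 strand takes positions 43 to 62 of 66 in its hairpin, wholly on the 3′ arm. The miR-451 strand takes positions 17 to 38 of 72 and so runs past the middle of its hairpin into the loop. By the RefSeq gene positions for GRCm38.p6, Mir486 overlaps Ank1, the predicted gene Gm15816 and Mir3107, also called mir-486b, and Mir451a overlaps Mir451b. The 3 seeds differ from one another, and no other probe shared bases 2 to 8 with any of them. MiR-101a and miR-101b shared bases 2 to 7 with miR-144. No other target lay within an edit distance of 2 of a member. The nearest were miR-295 at 8 from miR-451, miR-337-3p at 7 from miR-144 and miR-187 at 8 from miR-486. G and C made up 36.4% of the miR-451 target, 30.0% of that of miR-144 and 63.6% of that of miR-486.

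Detection was judged against the 95th percentile of the empty spots of a column, and miRNAs that passed in either column on 3 or more arrays were tested, as 568 did. A stricter bar was the same percentile of mismatch control spots, which 318 passed by the same rule. All 3 members were tested, and 2 of them (miR-451 and miR-486) were also above the mismatch controls. All 6 neuronal miRNAs listed as a check of the tissue (miR-124, miR-9, miR-128, miR-132, miR-138 and miR-218) were above them too. The arrays did not share one profile: over all tested miRNAs, the ratios of replicate 3 correlated negatively with those of replicate 5 (r = −0.56) and replicate 1 (r = −0.30), a description across miRNAs. The SD of all ratios on an array ran from 0.16 (replicate 4) to 0.40 (replicate 5).

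MiR-451 was well above background in every hybridisation. Its mean intensity over 6 spots on replicates 1 to 5 was 6298, 12084, 3579, 3632 and 2017 in Test, and 7216, 5008, 3002, 2861 and 4520.4 in Cntrl. Test was brighter on replicates 2, 3 and 4 and dimmer on replicates 1 and 5, and the ranges of the columns overlapped. These intensities stood 56.6 to 268 times above the empty-spot percentile in Test and 8.71 to 26.0 times above it in Cntrl. The columns differ in background, with medians of the empty spots of 31.4 to 45.7 in Test and 208 to 361 in Cntrl. Before normalization the ranges of the columns were apart for 1 of the 3 members, miR-144, and for 65.7% of tested miRNAs.

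**Figure D1:**
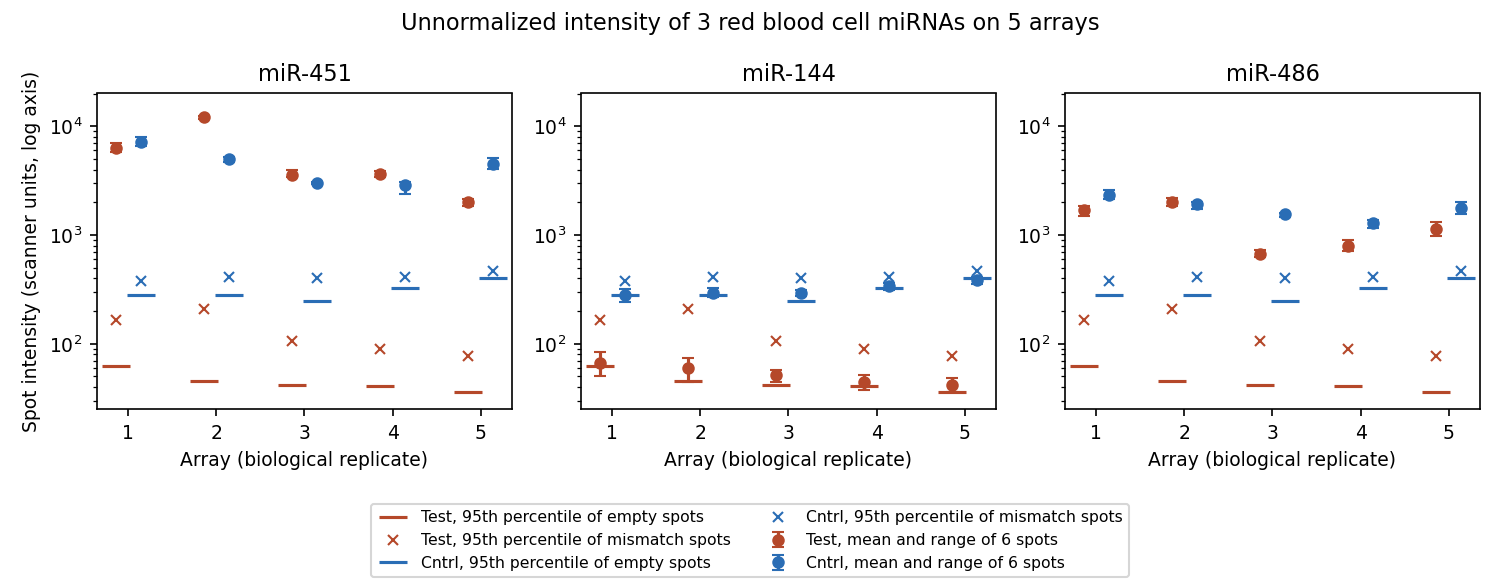
Unnormalized intensity (scanner units, log axis) of miR-451, miR-144 and miR-486 on arrays 1 to 5, with Test left of Cntrl; points are means of 6 spots, bars their range, short lines the 95th percentile of empty spots and crosses that of mismatch spots. MiR-451 and miR-486 lie above both lines everywhere, whereas miR-144 lies at the empty spots and below the mismatch spots on all 5 arrays.

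After background correction and loess, the log2 ratio of miR-451 was −0.14, 1.25, 0.74, 0.58 and −0.32 on replicates 1 to 5. On 3 arrays it was thus near the top of the whole array, and on the other two it was negative. It had the highest ratio of all 568 miRNAs on replicate 2, the 4th highest on replicate 3 and the 3rd highest on replicate 4, against rank 474 on replicate 1 and rank 500 on replicate 5. Expressed as a fold, Test was 2.38 times Cntrl on replicate 2, 1.67 times on replicate 3 and 1.49 times on replicate 4, whereas on replicates 1 and 5 it was 0.905 and 0.803 times Cntrl. Being among the 5 highest ratios on at least 3 arrays was shared by 2 miRNAs, or 0.352% of those tested. The other was miR-1, a muscle miRNA, on replicates 1, 4 and 5. This tally was chosen after the ratios had been seen and is a description only.

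The ratio of miR-451 spread far more between arrays than between the spots of an array. Each pair of mice was on 1 array, so differences between mice and differences in labelling or hybridisation cannot be told apart. Within an array, the SD of the miR-451 ratio over 6 spots was between 0.03 and 0.10, with a median of 0.09. Between arrays its SD was 0.65, against a median of 0.12 for all tested miRNAs. This was the 9th highest SD of 568, and the 4th highest among the 142 brightest miRNAs, where the median SD was 0.23. The upper and lower blocks of the array, with 3 spots each, gave the ratio the same sign on 5 of 5 arrays and differed by 0.11 at most.

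**Figure D2:**
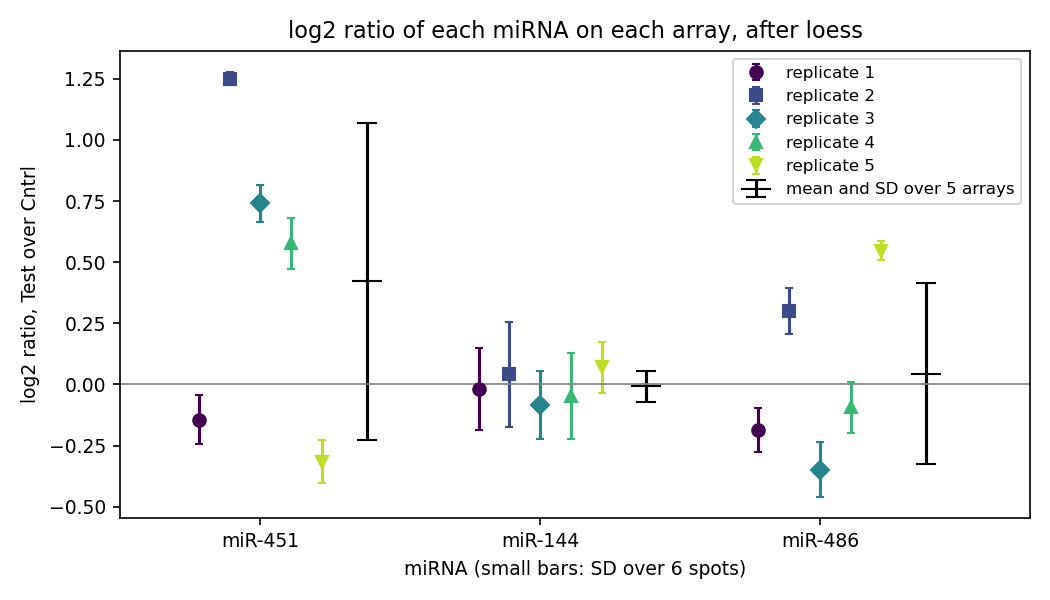
The log2 ratio (Test over Cntrl, after loess) of each miRNA on each of 5 arrays; coloured points are arrays with the SD over 6 spots, and the black bar is the mean with the SD over arrays. MiR-451 spreads from −0.32 to 1.25 with small spot bars, miR-486 from −0.35 to 0.55, and miR-144 stays between −0.08 and 0.07 with spot bars wider than that spread.

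The mean ratio of miR-451 was 0.42 ± 0.65 (SD, n = 5 arrays), or 1.34 times higher in Test, with a 95% interval from −0.19 to 1.03 in limma. It did not pass the test (limma adjusted p = 0.369 over 568 miRNAs; exact two-sided sign-flip permutation p = 0.25, where 5 arrays cannot give less than 0.0625). Of the 3 members, 2 had positive means and 1 a negative mean, with a median of 0.04 against 0.0029 over all tested miRNAs. None of the 3 passed, as for 0% of all tested miRNAs. At an unadjusted limma p under 0.05 the count was again 0 of the 3 members, against 19.4% of all (110 of 568). None kept its sign on all 5 arrays either, which 19.7% of miRNAs did. A mean beyond 0.4 in either direction was reached by miR-451 alone of the members, against 1.94% of all. That cut-off lies just under the mean of miR-451 itself, so the share is a description only. The interval spans folds from 0.876 to 2.05, so changes within it are not shown to be absent.

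Replicate 2 carried much of the miR-451 mean. Without replicate 2 it was 0.21 (limma adjusted p = 0.627), and without replicate 5 it was 0.61 (adjusted p = 0.227). The mean was positive whichever array was left out. With the sign of replicate 3 turned, tried because of its negative correlations, it was 0.13 (adjusted p = 0.842).

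MiR-144, whose strand is made from the same transcript, gave little signal to compare. On replicates 1 to 5 it read 66.1, 59.7, 52.1, 44.1 and 41.7 in Test, and 282, 294, 294, 338 and 384 in Cntrl. The empty-spot percentiles beside these were 62.8, 45.0, 42.2, 40.6 and 35.6 in Test and 278, 278, 248, 328 and 400.4 in Cntrl. It was therefore only just above empty spots, by 1.33 times at most, and in the Cntrl column of replicate 5 it was below them. On all 5 arrays and in both columns it was below the mismatch controls, at 0.286 to 0.535 times their percentile in Test and 0.71 to 0.828 times in Cntrl. Its spots varied by 4.65% to 19.6% (coefficient of variation), against 1.71% to 8.93% for miR-451.

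The log2 ratio of miR-144 was −0.02, 0.04, −0.08, −0.05 and 0.07 on replicates 1 to 5. No array stood out, and the spread was narrower than the spot error, whose SD within an array was 0.10 to 0.21. Its mean was −0.01 ± 0.06 (SD, n = 5; limma adjusted p = 0.934; exact sign-flip permutation p = 0.8125). Because both columns were below the mismatch controls, no fold is given, and a ratio near 0 here does not show equal amounts of miR-144. A narrow spread was common among dim probes: over the 142 dimmest miRNAs the median SD between arrays was 0.06. It also depended on the processing, since the miR-144 SD was 0.35 in the value table deposited by the authors. The narrow spread is therefore not a sign of a precise measurement.

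MiR-486 was measured clearly, and after loess its ratio was positive on some arrays and negative on others. Its intensity was 1699, 2026, 667, 789 and 1139 in the Test column, and 2342, 1909, 1546, 1291 and 1767 in the Cntrl column. Test was dimmer on 4 of 5 arrays before normalization, replicate 2 being the exception, and the ranges overlapped. The weakest of these signals was 3.15 times the mismatch percentile, in Cntrl of replicate 4. After loess the log2 ratio was −0.18, 0.30, −0.35, −0.09 and 0.55 on replicates 1 to 5. It was thus positive on replicates 2 and 5 and negative on the rest, with ranks of 39 and 41 from the top on replicates 2 and 5 and of 41 from the bottom on replicate 3.

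The mean for miR-486 was 0.04 ± 0.37 (SD, n = 5), with a limma 95% interval from −0.31 to 0.40, or folds of 0.808 to 1.32. It did not pass (limma adjusted p = 0.892; exact sign-flip permutation p = 0.8125). With each array centred on its median in place of loess, the mean was 0.34 and the ratio was positive on 5 of 5 arrays (limma adjusted p = 0.053). Its SD between arrays ranked 63rd of 568 and 32nd among the 142 brightest, while the spot SD within an array was 0.04 to 0.11. Leaving out replicate 5 turned the mean to −0.08, and leaving out replicate 2 turned it to −0.020, so its sign rests on those arrays.

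Levels in the single columns, scaled to a common distribution of mean intensity across arrays, were compared next. For miR-451 the log2 level was 12.34, 12.94, 12.23, 12.40 and 11.65 in Test and 12.48, 11.69, 11.49, 11.83 and 11.97 in Cntrl of replicates 1 to 5. The highest value was in Test of replicate 2 and the lowest in Cntrl of replicate 3, and the columns overlapped. The SD over arrays was 0.46 in Test and 0.37 in Cntrl, against medians of 0.19 and 0.13 over the 142 brightest miRNAs. The miR-486 level had an SD of 0.39 in Test and 0.20 in Cntrl, with its highest value (10.96) in Test of replicate 5 and its lowest (9.88) in Test of replicate 3. None of the 3 members had column ranges that were apart on this scale, as 2.29% of miRNAs did.

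**Figure D3:**
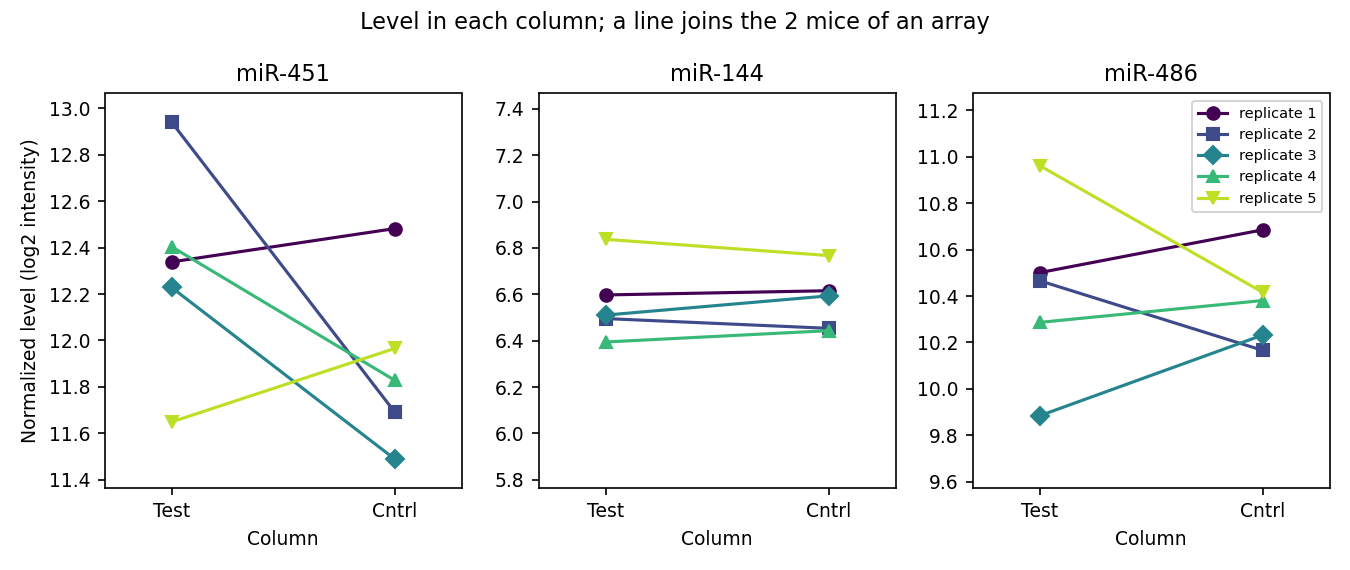
Normalized level (log2 intensity) of each miRNA in the Test and Cntrl columns; each line joins the 2 mice of an array, and each panel spans the same log2 range. MiR-451 lines fall from left to right on replicates 2, 3 and 4 and rise on replicates 1 and 5, while miR-486 lines fall on replicates 2 and 5 only.

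MiR-451 and miR-486, the members with signal above the mismatch controls, were set side by side on each array. After loess they had the same sign on 2 of 5 arrays, replicates 1 and 2. That tally depended on the normalization: it was 4 of 5 with median centring, 3 of 5 with none and 2 of 5 in the authors' value table. With median centring the 142 brightest miRNAs, which include the pair, had positive medians on every array (0.40 to 0.89). Without normalization the median of all tested miRNAs was −0.77. The tallies of those settings are therefore not read as agreement of the pair. The ratio of miR-451 minus that of miR-486 was 0.04, 0.95, 1.09, 0.67 and −0.86 on replicates 1 to 5. It was near 0 on replicate 1, positive on replicates 2 to 4 and negative on replicate 5, with a mean of 0.38 ± 0.80 (SD, n = 5; exact sign-flip permutation p = 0.3125). MiR-144 was below the mismatch controls. Its difference from miR-451 is therefore listed only with the processing settings, and does not compare their amounts.

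By root mean square difference of the 5 ratios, the miRNAs most like miR-451 were miR-582-5p (0.36), miR-380-3p (0.37) and miR-29a* (0.42). Of these, miR-29a* was not above the mismatch controls. The ratios of miR-582-5p were 0.09, 0.54, 1.01, 0.62 and −0.43, with the same high arrays 2 to 4 and the same low array 5. On replicate 2 it reached 0.54 where miR-451 was at 1.25, so even the closest profile was a loose match. MiR-486 had closer neighbours in miR-335-5p (0.11), miR-7a (0.12) and let-7b (0.15), all highest on replicate 5 and lowest on replicate 3, as miR-486 was. The nearest to miR-144 were miR-10a (0.03), miR-883a-5p (0.03) and miR-290-3p (0.04), which like it were not above the mismatch controls.

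Other miRNAs listed for the red cell lineage and for the cells that share its vessels were set beside the 3 members. Of those abundant in red blood cells or raised in erythropoiesis, miR-16, miR-107, miR-185, miR-15a and miR-92a were brighter in Test than miR-451. Their Test means were 24283, 10630, 6785, 6465 and 5636 against 5522, while the rest of that group, such as miR-93 (867), were dimmer. Which cells of the whole tissue gave these signals was not determined. Of 14 further miRNAs abundant in red blood cells or raised in erythropoiesis, 7 had positive and 7 negative means, with a median of −0.0032 against 0.0029 over all tested miRNAs, and 0 passed (limma). At an unadjusted p under 0.05 there were 3, 1 positive and 2 negative, against 19.4% of all tested miRNAs (110 of 568). MiR-15b was at 0.58 ± 0.54 (limma adjusted p = 0.222), miR-92a at 0.25 ± 0.33, miR-93 at −0.26 ± 0.20 and miR-185 at −0.10 ± 0.07 (SD, n = 5). On replicates 1 to 5 the median of the 14 was −0.014, −0.0027, 0.021, 0.08 and −0.11, negative on replicates 1, 2 and 5 and positive on replicates 3 and 4. Of the 14, miR-19b and miR-20a had the sign of miR-451 on 5 of 5 arrays, 4 had it on 4 arrays, 3 on 3 arrays and 5 on 2 arrays. Among those with 4 arrays, miR-363 was not above the mismatch controls. The shares over all tested miRNAs were not computed, so these counts are a description only. The 5 miRNAs that decline in erythroid differentiation had 3 positive and 2 negative means. These ran from −0.06 (miR-191) to 0.05 (miR-155, not above the mismatch controls), with miR-24 at 0.02 and miR-222 at 0.0041. Of the 5, 0 passed in limma, also at an unadjusted p under 0.05.

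The miRNAs listed for leukocytes had 5 positive means of 5, with a median of 0.21 against 0.0029 over all tested miRNAs. The share of positive means over all tested miRNAs was not computed, so the count of 5 is a description only. None of the 5 passed in limma, and 2 had an unadjusted p under 0.05, against 19.4% of all tested miRNAs. MiR-342-3p was at 0.24 ± 0.10 (adjusted p = 0.109), the lymphocyte miR-150 at 0.28 ± 0.27, the myeloid miR-223 at 0.21 ± 0.25 and miR-142-5p at 0.03 ± 0.06. MiR-223, miR-142-5p and miR-142-3p were not above the mismatch controls. MiR-150 and miR-342-3p were brighter in Test than miR-451 (means of 14086 and 10063 against 5522). Which cells of the whole tissue gave their signal was not determined. On replicates 1 to 5 the list's median was 0.37, 0.12, −0.06, 0.11 and 0.14, highest on replicate 1 and negative on replicate 3. Endothelial and mural miRNAs had 3 positive and 1 negative means, with miR-126-5p at 0.41 ± 0.37, miR-126-3p at 0.08 ± 0.07, miR-143 at 0.07 ± 0.13 and miR-145 at −0.05 ± 0.33, and 0 of 4 passed in limma (1 at an unadjusted p under 0.05). The part of blood or vessel content in the miR-451 ratio was not tested.

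Striated muscle miRNAs are of interest beside miR-486. MiR-1 had the highest SD of all 568 miRNAs, with ratios of 1.53, −0.11, −1.04, 0.69 and 2.26 on replicates 1 to 5. Like miR-486 it was highest on replicate 5 and lowest on replicate 3, but on replicates 1, 2 and 4 the signs of the pair were opposite. MiR-133a was at −0.12 ± 0.17, miR-133b at −0.13 ± 0.13 and miR-206 at 0.03 ± 0.34, and 0 of 4 passed in limma, also at an unadjusted p under 0.05. The neuronal check list had 1 positive and 5 negative means and a median of −0.10. Among its members, miR-9 was at −0.17 ± 0.07, miR-128 at −0.13 ± 0.13, miR-132 at 0.16 ± 0.14 and miR-218 at −0.08 ± 0.04. In limma 0 of 6 passed, and 3 had an unadjusted p under 0.05, against 19.4% of all tested miRNAs.

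**Figure D4:**
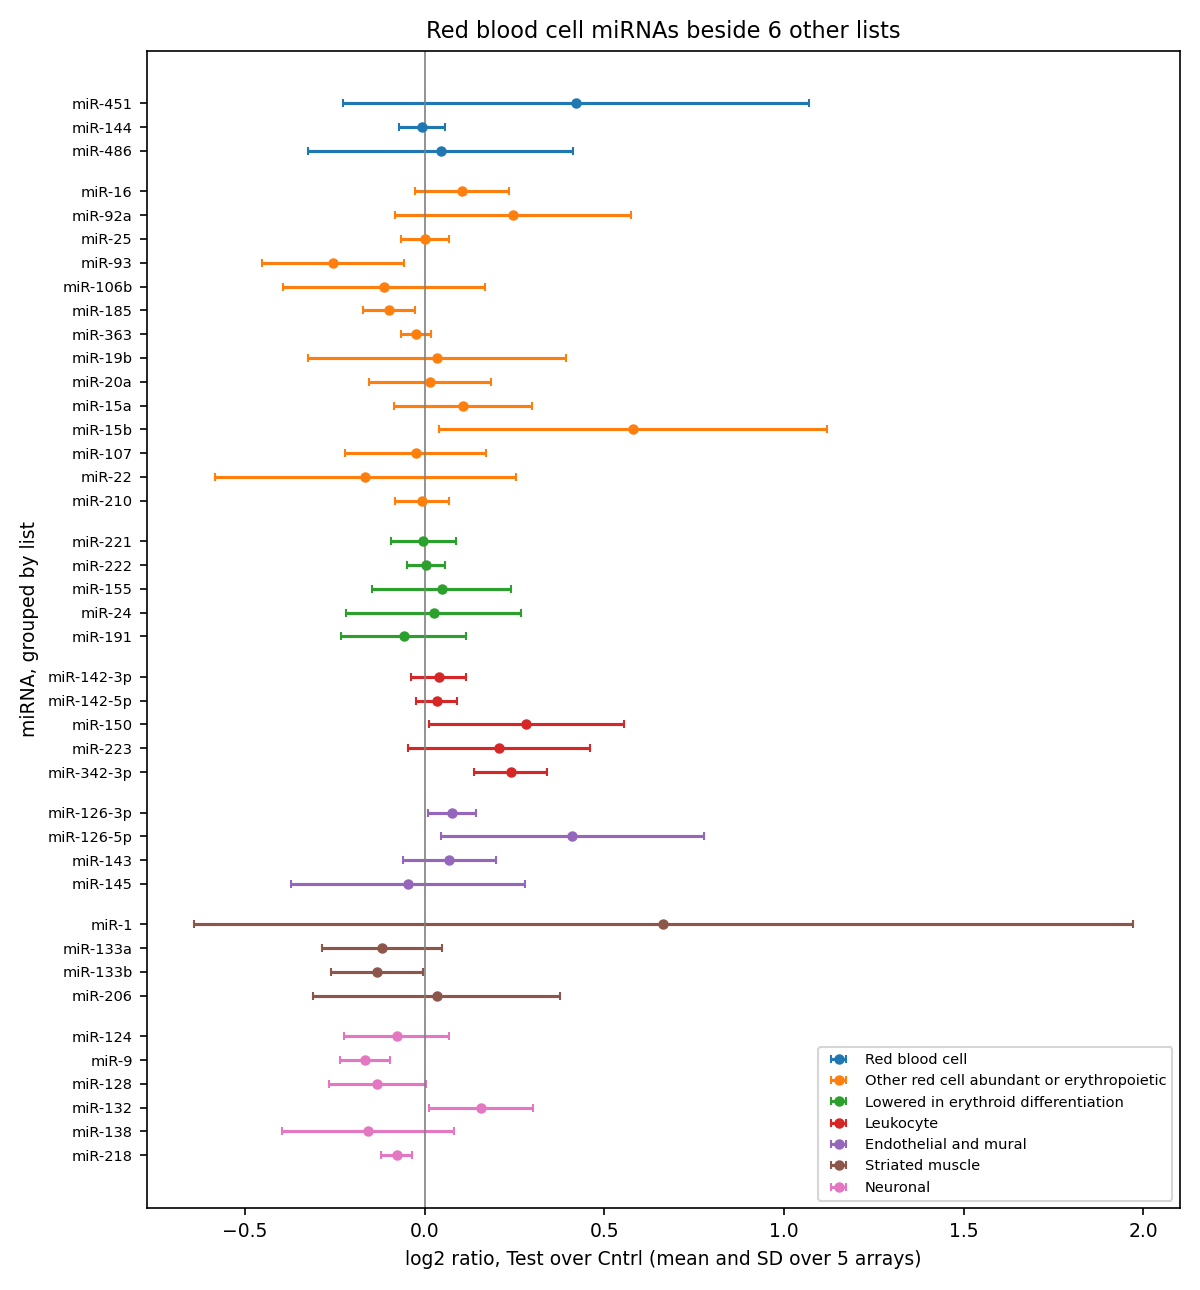
Mean log2 ratio (Test over Cntrl) with the SD over 5 arrays for the 3 red blood cell miRNAs (top) and for 6 other lists. The bar of miR-451 (0.42 ± 0.65) is longer than that of every other miRNA drawn except miR-1 (0.66 ± 1.31).

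The within-array normalization changed the size of the ratios more than any other step. With each array centred on its median in place of loess, miR-451 was at 0.91 and passed (limma adjusted p = 0.046), with ratios of 0.29, 1.72, 1.41, 1.16 and −0.05 on replicates 1 to 5. In that setting ratios rose with intensity on all 5 arrays (r from 0.51 to 0.90 across miRNAs), and the median of the 142 brightest, which include miR-451 and miR-486, was 0.40 to 0.89. Left unnormalized, all miRNAs had a median of −0.77, and miR-451 at 0.18, miR-486 at −0.39 and miR-144 at −0.87 are to be read against that. The authors' own value table, which follows Test over Cntrl, gave miR-451 at −0.21, 1.23, 0.74, 0.55 and −0.37. The same arrays were high and low there, with a mean of 0.39 ± 0.67 (SD, n = 5; limma adjusted p = 0.460).

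**Figure D5:**
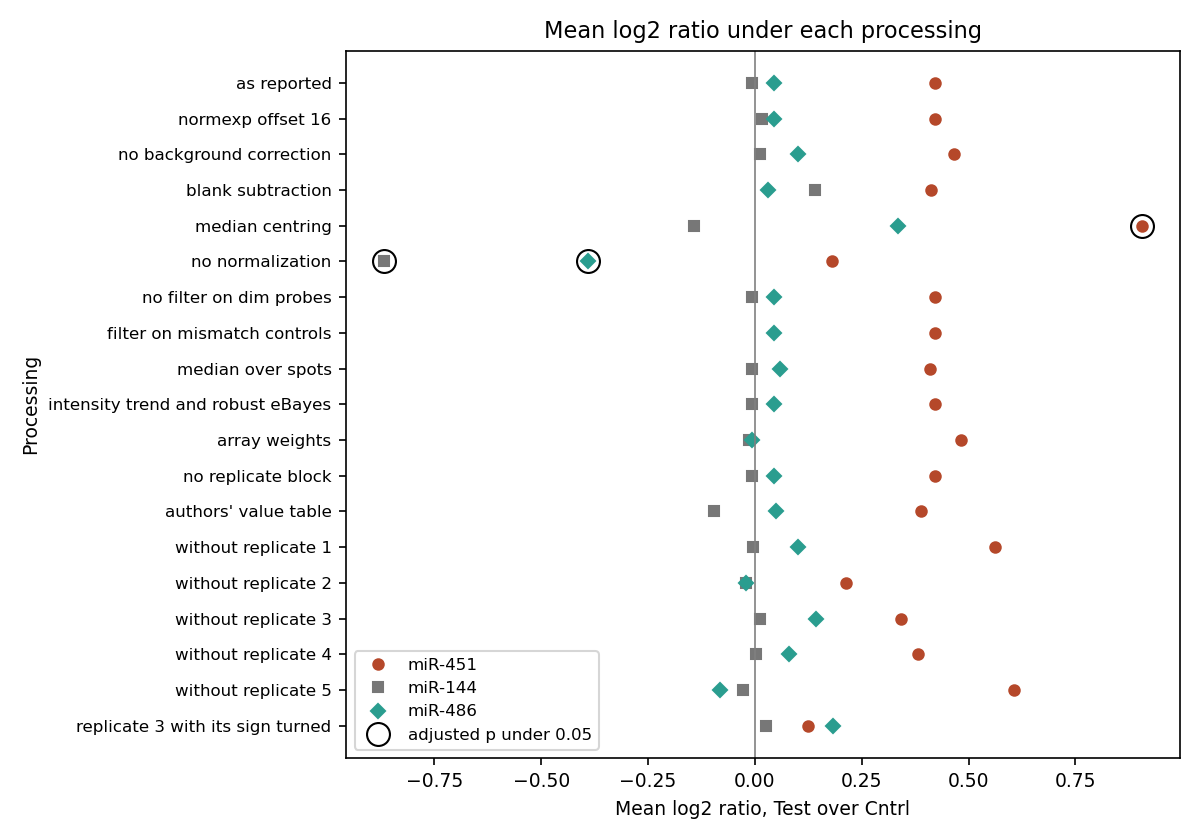
Mean log2 ratio (Test over Cntrl) of the 3 miRNAs under each processing, with a ring where the limma adjusted p was under 0.05. MiR-451 is positive throughout, from 0.13 to 0.91, and passes with median centring alone, while miR-144 and miR-486 lie on both sides of 0.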

How the data were processed

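The authors deposited 5 tables of linear spot intensity, not normalized, with 3968 spots each (3414 of miRNAs); per the file headers, they hold the mean and SD of the foreground in a Cntrl and a Test column. Background is 0 in every row. Per the labels' protocols, RNA was extracted with the mirVana kit and small RNAs were labelled. The sources used here name no scanner or software. A deposited value table holds log2 ratios. It correlated with blank-subtracted loess ratios of the same array at 0.98 to 0.99 (slope 0.94 to 0.99, 318 miRNAs, against at most 0.66 for other arrays), so scale and direction follow log2 of Test over Cntrl. Its column medians were −0.04, −0.02, −0.03, −0.03 and −0.05, and its exact normalization is unknown.

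Intensities were corrected with normexp (offset 50) and loess in limma 3.58.1 (R 4.3.3), with the 554 control spots given no weight. Log2 ratios were averaged over the 6 spots of each probe. Values of 568 miRNAs were fitted with an intercept and eBayes, two-sided, with Benjamini-Hochberg adjustment at 0.05. The array pairs 1 mouse of each genotype, as the labels state, so the ratio carries the pairing. P-values cover the spread between these pairs. Mismatch controls were 136 spots, without those of the bright spike-in series. The fit was also run on simulated data with independent errors and no normexp step. Those data differ from these arrays, and nothing is drawn from that run here. The members, lists and settings were chosen with earlier results of these data known. Named miRNAs are the members, up to 4 per list with the largest moderated statistic, and the 3 nearest to each member. Arrays number 5, which limits precision. Sequences are from the array and RefSeq (GRCm38.p6). Figures were drawn with matplotlib 3.10.9.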

Additional observations from a re-analysis of the deposited data

How the results depend on the processing

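The 5 arrays, the lack of a dye swap and the unnamed columns limit every ratio, and signal over background limits miR-144. The number of miRNAs past an adjusted p of 0.05 was 0 as reported. It was 2 with a normexp offset of 16, 2 with the authors' value table, 4 with an intensity trend and robust eBayes, 21 with array weights, 248 with median centring and 442 with no normalization. Without the replicate block, that is with the columns fitted apart from their pairing, it was 1, and no call of a member changed (miR-451 adjusted p = 0.569). Leaving out 1 array gave 0 to 5, the 5 without replicate 3. MiR-451 kept its sign in all 18 alternatives and passed in 1, median centring, at 0.91. Its means ran from 0.21 (without replicate 2) to 0.61 with 1 array left out. MiR-144 turned to 0.016 with offset 16, 0.012 with no background correction, 0.14 with blank subtraction and 0.026 with replicate 3 turned, and passed at −0.87 with no normalization, where all miRNAs shifted. With 1 array left out it ran from −0.027 to 0.011. It was not tested under the filter on mismatch controls, which removes it. MiR-486 was at 0.34 with median centring (adjusted p = 0.053), turned to −0.39 with no normalization (adjusted p = 0.034) and to −0.0070 with array weights, and ran from −0.082 to 0.14 with 1 array left out. MiR-451 minus miR-486 turned to −0.058 with replicate 3 turned, an alternative chosen after seeing the data, and ran from 0.20 to 0.69 with 1 array left out. MiR-451 minus miR-144 was 0.43 ± 0.67 (exact sign-flip permutation p = 0.25) and kept its sign in all 17 alternatives. It was 0.10 with replicate 3 turned and 1.05 with median centring or no normalization. With 1 array left out it ran from 0.23 (without replicate 2) to 0.63. Because miR-144 was at background, this difference does not compare the amounts of the pair, and its stable sign is not a result about them.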

Other observations

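The miR-101 pair, which shares bases 2 to 7 with miR-144, had wide ratios: miR-101a was at 0.01 ± 0.58 and miR-101b at 0.06 ± 0.54 (SD, n = 5 arrays), against −0.01 ± 0.06 for miR-144 at background.

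In the authors' value table miR-144 was at −0.40, 0.15, −0.14, −0.44 and 0.35 on replicates 1 to 5 (SD 0.35, against 0.06 after normexp), while miR-486 was at −0.22, 0.36, −0.41, −0.05 and 0.57, with the same arrays positive and negative as after normexp.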
